A study of Mus musculus with 2 samples.

Results

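The B cell and plasma cell genes are the 9 genes Ighm, Jchain, Ms4a1, Cd79a, Cd79b, Mzb1, Cd22, Fcmr and Pou2af1, measured in liver RNA on Affymetrix expression arrays. They were chosen by symbol, as every probe set that the platform's annotation assigns to 1 of these symbols alone, which gave 21 of 45101 probe sets and 9 of 18193 named genes. Of the 21 probe sets, 11 belong to Ighm.

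Both groups were male C57Bl/6J mice that were 9 weeks old at the start and were depleted of n-3 polyunsaturated fatty acids by a sunflower oil diet within an experiment of 112 days. DEF/FOS mice stayed on the depleted diet, with an n-6 to n-3 ratio of 127.2, and for the last 10 days drank fructooligosaccharides, a fermentable fibre, at 0.25 g per day. DEF/CT mice kept the depleted diet until the last 10 days and were then returned to the soybean oil control diet, with a ratio of 6.9, without the fibre. The treatment protocol gives 8 mice for each group, while the extract protocol gives only a range of 4 to 8 mice per pool, so the number in each pool is not certain. Equal amounts of RNA of the mice of a group were pooled onto 1 array, so that a value for DEF/FOS or DEF/CT livers is that of 1 pool. The spread between animals is therefore not measured, no difference below has a test or a replicate check, and fibre and oil cannot be told apart. Whole liver was used, so that fewer cells of a type and less RNA per cell cannot be told apart either.

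The deposited values are MAS5 signals on a linear scale, brought by the authors to the same trimmed mean of 100.00 in both arrays. A floor was set at the median over probe sets of the mean signal of both arrays, 19.4. The table holds no detection calls, so a signal under the floor is treated here as having no order. A fold against such a signal was computed against the floor and is given as a bound. All differences are log2 DEF/FOS minus DEF/CT, centred by 0.015 so that the median over probe sets above the floor is 0. The SD of the difference between probe sets of the same gene was 0.61 at mean signals of 19.4 to 40.2. It was 0.38 from there to 91.8, 0.26 up to 249.1 and 0.16 above. This SD is the only measure of spread available and leaves out animals and arrays. Alb, the plasma albumin of hepatocytes, had signals of 11023 in DEF/FOS livers and 11303 in DEF/CT livers, and the 9 hepatocyte markers above the floor had differences from -0.22 to 0.25.

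B cells carry an immunoglobulin on their surface as part of the B cell receptor, which joins the heavy and light chains to the signalling pair CD79A and CD79B. When a B cell becomes a plasma cell it secretes the same antibody in large amounts, and the J chain links IgM and IgA molecules into polymers that epithelial cells can carry across. B cells are a minority of the cells of the mouse liver, and blood left in the tissue can add to them.

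Most of the B cell and plasma cell genes had the lower signal in DEF/FOS livers. The gap was at least 1.5-fold for Jchain, which links antibody polymers, for the B cell surface gene Ms4a1, and for Ighm by its probe sets of highest signal. Cd79b, Mzb1 and Cd22 were lower by less than 1.5-fold, and Fcmr was 1.06-fold higher. Outside these genes, kappa light chain signals were lower in DEF/FOS livers as well, whereas the IgA heavy chain gene Igha was higher by all 3 of its probe sets.

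The receptor's heavy chain gave a divided reading. Ighm encodes the constant region of IgM, and the arrays hold 11 probe sets for it. The probe set 1427351_s_at had a signal of 243 in DEF/FOS livers and 809 in DEF/CT livers, 3.29-fold lower in DEF/FOS livers. The probe set 1427329_a_at had 106.8 in DEF/FOS livers and 324 in DEF/CT livers, 3.01-fold lower. Both differences, -1.72 and -1.59, are several times the SD between probe sets at these signals. The other 3 Ighm probe sets above the floor showed no such gap. The probe set 1427870_x_at had signals of 70.2 in DEF/FOS livers and 72.9 in DEF/CT livers, and 1425247_a_at had 38.2 in DEF/FOS livers and 37.9 in DEF/CT livers. The probe set 1425385_a_at had 22.5 in DEF/FOS livers and 19.4 in DEF/CT livers, with the DEF/CT signal just under the floor.

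The remaining 6 Ighm probe sets had mean signals below the floor. In 5 of them both signals were below it, so no direction is given. The one with a signal above it was 1425324_x_at, with 19.9 in DEF/FOS livers and 1.95 in DEF/CT livers, which is at least 1.03-fold higher in DEF/FOS livers. Over the 5 probe sets above the floor the SD of the difference was 0.95, and 2 of them were at least 1.5-fold lower. Across all 22519 such probe sets of the arrays, 8.85% were at least 1.5-fold lower and 7.58% at least 1.5-fold higher. The median difference was -0.04 over the 5 Ighm probe sets above the floor. A further 4 probe sets list Ighm beside other heavy chain symbols and are named for no single gene. Of these, 3 were below the floor in both pools, and 1427758_x_at had 6.15 in DEF/FOS livers and 35.9 in DEF/CT livers, at least 1.83-fold lower. The endings _s_at, _a_at and _x_at mark probe sets whose probes can match more than 1 transcript, and all 5 Ighm probe sets above the floor have such an ending. The sequences that these probe sets match were not used here, so which of them read the constant region was not tested.

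**Figure D1:**
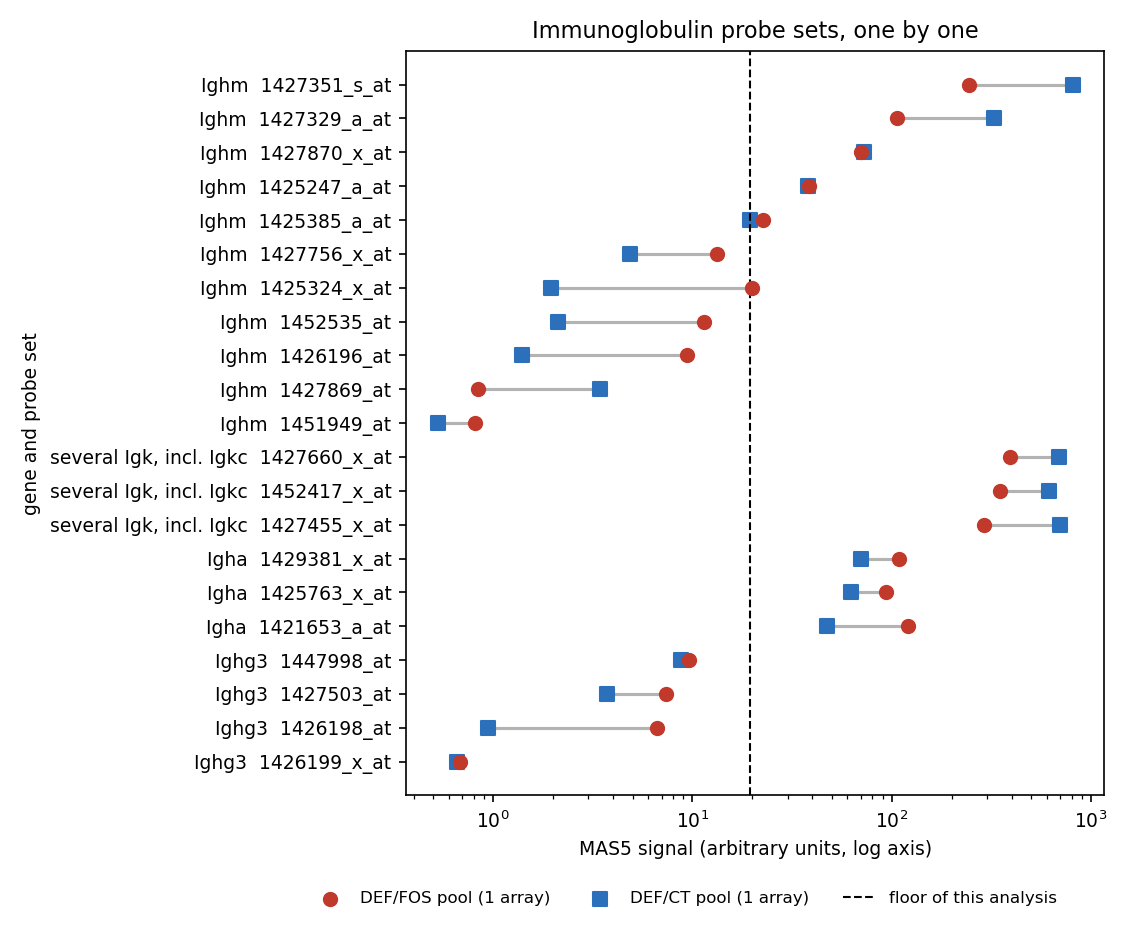
MAS5 signal (horizontal log axis, arbitrary units) of each immunoglobulin heavy chain probe set of Ighm, Igha and Ighg3 and of the 3 probe sets annotated to several kappa symbols that include the constant region, with the DEF/FOS pool as circles, the DEF/CT pool as squares and the floor of 19.4 as a dashed line. Each point is 1 array of pooled RNA. The first 2 Ighm probe sets and the 3 kappa probe sets lie lower in DEF/FOS livers, and the 3 Igha probe sets lie higher.

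The signalling pair of the receptor had low signals. Cd79a, which carries the signal of the receptor into the cell with its partner, had 15.3 in DEF/FOS livers and 22.9 in DEF/CT livers, at least 1.17-fold lower, and its mean signal lay below the floor. Cd79b, the partner chain, had 25.7 in DEF/FOS livers and 35.1 in DEF/CT livers, a difference of -0.44 that is within the SD between probe sets at that signal. Both genes thus had the lower signal in DEF/FOS livers, by amounts that these arrays do not separate from the disagreement between probe sets.

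Cd22, an inhibitory lectin that dampens receptor signalling, had 28.8 in DEF/FOS livers and 35.2 in DEF/CT livers by 1419768_at, a difference of -0.27. Its other probe set, 1419769_at, had signals of 0.664 in DEF/FOS livers and 0.540 in DEF/CT livers, both below the floor. Fcmr, the receptor for the Fc part of IgM, had 23.3 in DEF/FOS livers and 22.2 in DEF/CT livers. It was the one member above the floor with a positive difference, 0.09.

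Ms4a1 encodes CD20, a membrane protein of mature B cells that plasma cells lack. Its probe set 1423226_at had 14.9 in DEF/FOS livers and 36.8 in DEF/CT livers, at least 1.87-fold lower in DEF/FOS livers. The measured difference was -1.29, where the SD between probe sets at such mean signals was 0.61. It uses a DEF/FOS signal below the floor, and with that signal raised to the floor it was -0.905. In the other probe set, 1450912_at, both signals, 7.37 in DEF/FOS livers and 15.3 in DEF/CT livers, were below the floor.

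Among genes of antibody secretion, Jchain had 55.7 in DEF/FOS livers and 106.8 in DEF/CT livers, 1.90-fold lower in DEF/FOS livers. Its difference of -0.92 is over the SD of 0.38 between probe sets at such signals. Mzb1, a protein of the endoplasmic reticulum that helps assemble and secrete IgM, had 37.2 in DEF/FOS livers and 51.7 in DEF/CT livers, a difference of -0.46. Pou2af1, a coactivator that joins the octamer-binding factors on immunoglobulin promoters, had 3.41 in DEF/FOS livers and 18.5 in DEF/CT livers. Both of these signals are below the floor, so no fold is given.

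**Figure D2:**
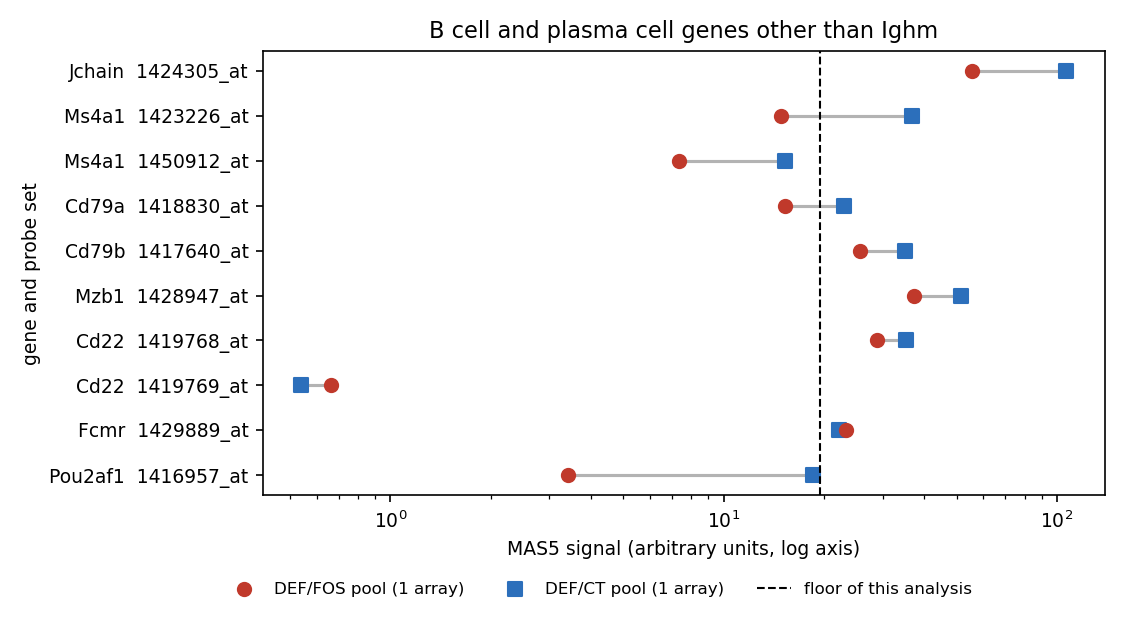
MAS5 signal (horizontal log axis, arbitrary units) of each probe set of the 8 genes other than Ighm, with the DEF/FOS pool as circles, the DEF/CT pool as squares and the floor of 19.4 as a dashed line. Each point is 1 array, and in the 7 probe sets with a signal above the floor the DEF/FOS point lies left of the DEF/CT point except for Fcmr.

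With 1 probe set per gene, the one with the highest mean signal, 7 of the 9 members lay above the floor, and Cd79a and Pou2af1 did not. Of the 7, 6 had a negative difference, as did 5587 of all 11163 genes above the floor. The median was -0.46 over the 7 members and 0.00 over all 11163 genes. The members at least 1.5-fold lower in DEF/FOS livers were Ighm, Jchain and Ms4a1, 3 of 7, and 0 of 7 were at least 1.5-fold higher. Of all 11163 genes, 7.82% were at least 1.5-fold lower and 6.75% at least 1.5-fold higher. Signals near the floor scatter more. At equal trimmed means, the median signal over all probe sets was 19.6 in DEF/FOS livers and 22.0 in DEF/CT livers. Among the 4412 genes between the floor and the 75th percentile of signal, 84.3, 15.5% were at least 1.5-fold lower. In the same range 10.9% were at least 1.5-fold higher, so low signals lean lower in DEF/FOS livers. This range was added with the values known, and its median difference was not computed. Of the 7 members, 6 lay in that range and Ighm above it. At least 2-fold lower were Ighm and, by its measured signal, Ms4a1, where 2.19% of all genes and 4.94% of those between the floor and the 75th percentile were, but the bound for Ms4a1 is below 2-fold.

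**Figure D3:**
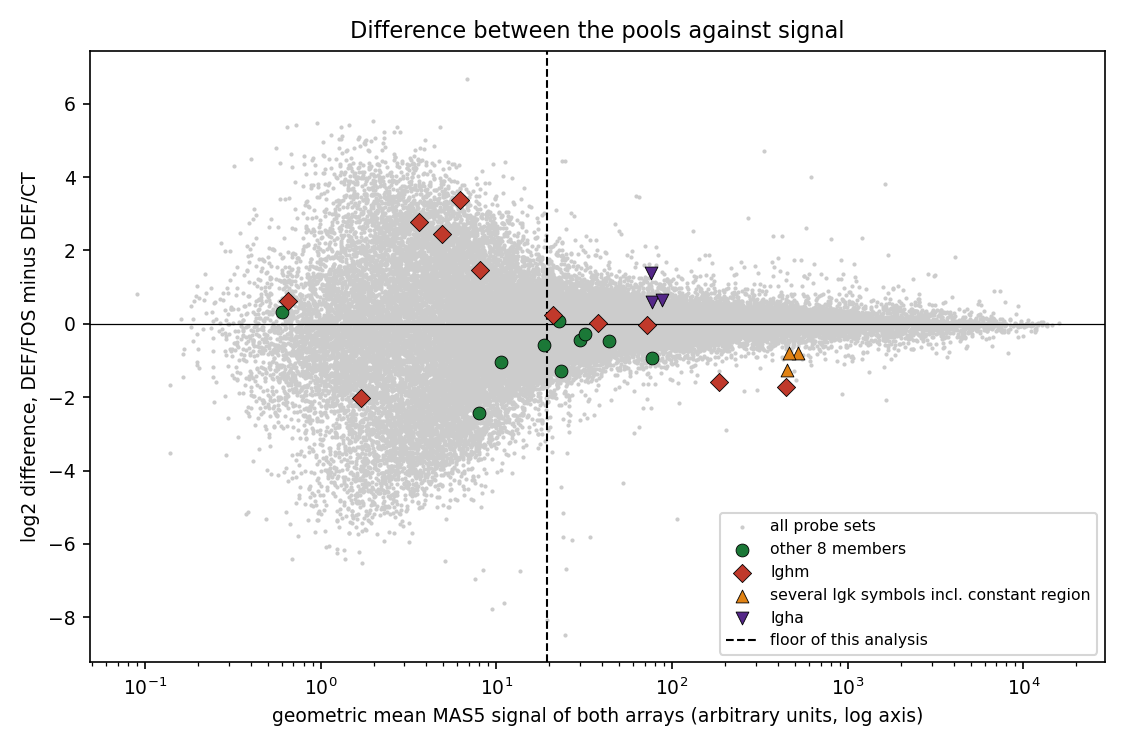
Log2 difference, DEF/FOS minus DEF/CT (vertical axis), against the geometric mean signal of both arrays (horizontal log axis, arbitrary units) for all probe sets in grey, with Ighm, the other 8 members, the 3 kappa probe sets that include the constant region and Igha marked. The grey cloud widens below the floor of 19.4, where 6 of the 11 Ighm probe sets lie, and narrows at high signal, where the Ighm differences of -1.72 and -1.59 lie at its lower edge.

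Promoter windows were read for the members that had one, whatever the direction of their signal. Ighm, Ms4a1, Cd79b and Mzb1 had none. Windows from 250 bases before to 50 bases after the gene start, from RefSeq on GRCm38.p6, were held for 5 members, Jchain, Cd79a, Cd22, Fcmr and Pou2af1. The octamer ATGCAAAT, the element that Pou2af1 is known to bind with its partner factors, was found on either strand in 0 of these 5 windows and in 1.74% of all 32851 windows. The core CCCNNGGG of the motif of EBF1, a factor of early B cells, which reads the same on both strands, was in 1 of the 5, that of Cd22, and in 13.7% of all windows. The ETS-type motif CAGGAAGT was in 1 of the 5, that of Cd79a, on the coding strand, and in 3.33% of all windows. Both of the last motifs were chosen after the windows had been read, and matches of the 3 motifs do not overlap. A match here is a run of letters and no binding was measured. Below are Jchain (chr5:88527848-88528147, minus strand), Cd79a (chr7:24897247-24897546, plus strand) and Cd22 (chr7:30878979-30879278, minus strand), written along the gene with any match in capitals.
Jchain: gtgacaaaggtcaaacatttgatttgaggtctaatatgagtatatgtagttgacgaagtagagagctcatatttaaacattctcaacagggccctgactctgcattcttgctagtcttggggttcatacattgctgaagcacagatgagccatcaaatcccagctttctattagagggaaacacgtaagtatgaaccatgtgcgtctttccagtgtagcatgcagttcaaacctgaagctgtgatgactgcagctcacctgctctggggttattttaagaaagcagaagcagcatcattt
Cd79a: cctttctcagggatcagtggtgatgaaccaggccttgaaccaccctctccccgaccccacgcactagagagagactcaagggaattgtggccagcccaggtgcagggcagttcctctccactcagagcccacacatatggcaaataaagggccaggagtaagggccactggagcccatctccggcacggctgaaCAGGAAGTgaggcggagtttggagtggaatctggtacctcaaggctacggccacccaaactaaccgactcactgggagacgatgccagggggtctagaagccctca
Cd22: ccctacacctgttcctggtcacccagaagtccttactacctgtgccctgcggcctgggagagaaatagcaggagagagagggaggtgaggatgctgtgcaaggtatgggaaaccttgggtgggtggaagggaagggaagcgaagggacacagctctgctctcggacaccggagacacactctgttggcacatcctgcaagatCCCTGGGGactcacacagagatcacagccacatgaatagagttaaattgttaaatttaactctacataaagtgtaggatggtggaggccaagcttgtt
The match in Cd79a starts 56 bases before the gene start and the match in Cd22 starts 48 bases before it.

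Light chain signals were also lower in DEF/FOS livers. The 3 probe sets whose annotation lists 5 kappa symbols, the constant region among them, are named for no single gene. Their signals were 291, 394 and 349 in DEF/FOS livers, against 701, 694 and 618 in DEF/CT livers, which is 2.38-fold, 1.75-fold and 1.75-fold lower. All 3 differences, from -1.25 to -0.80, exceed the SD of 0.16 between probe sets at these signals. Igkv8-30, a kappa variable gene, had 59.5 in DEF/FOS livers and 136.4 in DEF/CT livers, 2.27-fold lower, while a probe set named Igk, 1452557_a_at, had 22.8 in DEF/FOS livers and 23.5 in DEF/CT livers. Iglv1, a lambda variable gene, had 26.5 in DEF/FOS livers and 38.7 in DEF/CT livers, a difference of -0.53. Related variable genes share sequence, so these probe sets are not independent of each other.

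The IgA heavy chain ran the other way. Igha, the constant region of the antibody of mucosal surfaces, had 121.0 in DEF/FOS livers and 47.2 in DEF/CT livers by 1421653_a_at, 2.59-fold higher in DEF/FOS livers. By 1425763_x_at it had 94.0 in DEF/FOS livers and 62.8 in DEF/CT livers, 1.51-fold higher, and by 1429381_x_at 109.0 in DEF/FOS livers and 70.2 in DEF/CT livers, 1.57-fold higher. All 3 probe sets of Igha were thus higher, with differences from 0.60 to 1.38. The SD between probe sets at these signals was 0.38. All 3 end in _a_at or _x_at, so their probes can match more than 1 transcript. They may therefore not be independent of each other, and what they match was not tested. For comparison, 7.58% of the arrays' probe sets over the floor showed a rise of 1.5-fold or more in DEF/FOS livers. Jchain, which both IgA and IgM polymers use, was lower. Ighg3, an IgG heavy chain, had all 4 probe sets below the floor in both pools. Of the 10 immunoglobulin probe sets above the floor that are not named for Ighm, the 3 of Igha had positive differences and the other 7 negative ones. Over all genes above the floor, counted by 1 probe set per gene and so in another unit, 5587 of 11163 were negative. Among the 7, Igk by 1452557_a_at at -0.03, Iglv1 at -0.53 and the kappa probe set 1451965_at at -0.59 lay within the SD of 0.61 at their signals. Another 3 are the kappa probe sets that list the constant region and share the same symbols.

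Genes around the B cell receptor were mostly within 1.5-fold. For the counts of this list and those that follow, the share of all genes above the floor at least 1.5-fold lower was 7.82%. The share at least 1.5-fold higher was 6.75%. Outside the members, 3 genes of the receptor complex list lay above the floor and 0 of them was at least 1.5-fold apart. Of these, Cd81, a tetraspanin found on many cell types, had 1708 in DEF/FOS livers and 1548 in DEF/CT livers. Of 14 signalling genes above the floor, 1 was at least 1.5-fold lower and 0 at least 1.5-fold higher, with a median of 0.01. The lower one was Prkcb, the kinase that links the receptor to NF-kappaB, with 27.3 in DEF/FOS livers and 56.7 in DEF/CT livers, 2.05-fold lower. Inpp5d, a lipid phosphatase that limits receptor signalling, was 1.49-fold higher, the receptor kinase gene Syk 1.46-fold higher and the tetraspanin gene Cd53 1.34-fold higher in DEF/FOS livers, and these 3 genes are expressed by myeloid cells too.

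The 11 B lineage transcription factors above the floor had a median of -0.13, with 2 at least 1.5-fold lower and 1 at least 1.5-fold higher. Pax5, which holds cells in the B lineage, had 21.7 in DEF/FOS livers and 33.2 in DEF/CT livers, a difference of -0.60 that is no larger than the SD between probe sets at that signal. Mef2c was 1.61-fold lower, but its 4 probe sets above the floor ran from -0.81 to 0.38. Ikzf1, a factor of all lymphoid cells, was at least 1.64-fold higher, and Spi1, which also drives myeloid cells, 1.43-fold higher. Ebf1, Spib, Pou2f2, Ikzf3 and Bcl11a were below the floor in both pools, as was Pou2af1.

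Of 5 B cell surface and homing genes above the floor, 1 was at least 1.5-fold lower, the member Ms4a1, and 1 at least 1.5-fold higher. The higher one was Cd24a, which many cell types express, with 119.6 in DEF/FOS livers and 73.4 in DEF/CT livers and differences from 0.10 to 0.79 over its 3 probe sets. H2-DMb2 differed by -0.35, with its other probe set at 0.20, and the chemokine receptor gene Ccr6 by -0.28. The chemokine receptors Cxcr5, Cxcr4 and Ccr7 and the BAFF receptor Tnfrsf13c were below the floor in both pools. Class II genes, which B cells share with Kupffer cells and dendritic cells, were within 1.5-fold in 7 of 7 cases, with Cd86 at 0.45 and H2-DMa at -0.23. These counts use 1 probe set per gene, and the 4 probe sets of H2-Aa above the floor ran from -0.99 to -0.04. Early B cell genes were within 1.5-fold in 4 of 4 cases, with differences from -0.20 for Sox4 to 0.31 for Cd93.

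Plasma cell regulators other than the members showed 0 of 6 genes at least 1.5-fold apart. Prdm1, the repressor that sets the plasma cell programme, had 19.8 in DEF/FOS livers and 26.5 in DEF/CT livers, a difference of -0.41. Irf4 and the survival receptor Tnfrsf17 were below the floor in both pools. The secretory machinery that plasma cells use, and that hepatocytes express as well, had 3 of 18 genes at least 1.5-fold lower and 0 higher, with a median of -0.19. Derl3, a factor of the degradation of misfolded proteins of the endoplasmic reticulum, had 38.4 in DEF/FOS livers and 121.5 in DEF/CT livers, 3.14-fold lower. The disulphide isomerase gene Pdia4 was 2.06-fold lower, at 62.9 in DEF/FOS livers and 130.7 in DEF/CT livers. Sdf2l1, a partner of the chaperone BiP, was 1.63-fold lower, while Dnajb9, a cochaperone, differed by 0.55.

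Of the genes that draw, sustain or serve B cells, Cxcl13, the chemokine that attracts B cells to follicles, had 114.0 in DEF/FOS livers and 51.9 in DEF/CT livers, 2.22-fold higher in DEF/FOS livers, and its 2 probe sets differed by 0.68 and 1.15. It was the 1 gene of 5 above the floor in that list past 1.5-fold. Pigr, the receptor that carries polymeric IgA across epithelia, had 4633 in DEF/FOS livers and 4929 in DEF/CT livers, a difference of -0.07. The chemokine Cxcl12 differed by -0.11 and Fcgrt, which protects IgG from breakdown, by 0.09.

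**Figure D4:**
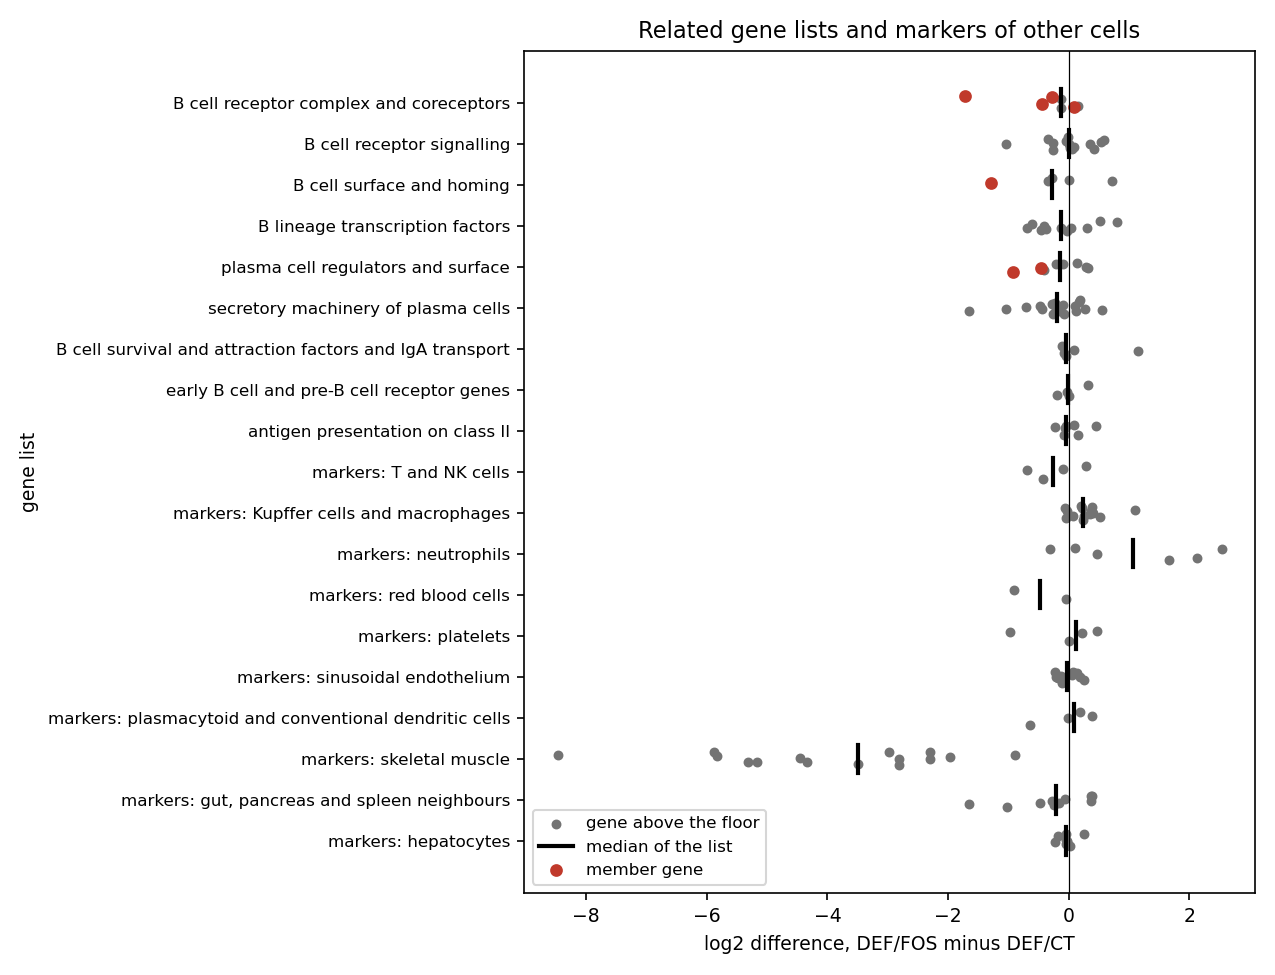
Log2 difference, DEF/FOS minus DEF/CT (horizontal axis), of each gene above the floor in the related lists and in marker lists of other cells (1 row per list), with members in red and the list's median as a black bar. Each point is 1 gene (1 probe set each, that with the highest mean signal), and the muscle markers lie farthest to the lower side with a median of -3.50.

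Markers of other cells moved beside these genes, and their part in the member differences was not tested. Skeletal muscle markers were at least 1.5-fold lower in DEF/FOS livers in 15 of 15 genes above the floor, with a summed signal over these genes of 205.9 in DEF/FOS livers and 2979 in DEF/CT livers. The sums of the other lists also cover genes above the floor alone. The bounds were 23.7-fold lower for Tnnc2, 10.6-fold for Myl1, 13.2-fold for Myh1 and 34.5-fold for Acta1. Neutrophil markers summed to 459 in DEF/FOS livers and 168 in DEF/CT livers. Of the 6 above the floor, Lcn2, S100a8 and S100a9 were at least 1.5-fold higher and 0 were at least 1.5-fold lower. These genes held most of both sums, with 119.6, 146.6 and 109.6 in DEF/FOS livers and 20.9, 33.8 and 35.1 in DEF/CT livers. Csf3r was 1.38-fold higher, Ngp differed by 0.10 and the granule protease gene Elane by -0.30. Mpo, the granule peroxidase, had a mean signal below the floor and was at least 1.11-fold lower, at 2.83 in DEF/FOS livers and 21.8 in DEF/CT livers. Cxcr2, also below the floor by its mean, was at least 1.54-fold higher, at 29.6 in DEF/FOS livers and 3.88 in DEF/CT livers. Kupffer cell and macrophage markers summed to 5327 in DEF/FOS livers and 4505 in DEF/CT livers. Of their 14 genes 1 was at least 1.5-fold higher, Marco, with C1qa, Cd163 and Lyz2 next. T and NK cell markers summed to 111.8 in DEF/FOS livers and 126 in DEF/CT livers over 4 genes, and 9 of the 14 with a probe set were below the floor in both pools. The T cell receptor genes Cd3d, Cd3e, Cd3g and Cd247 were among these, and Cd8a was 1.61-fold and Thy1 1.34-fold lower. Prf1 and Nkg7 differed by 0.29 and -0.09, but the 2 probe sets of Prf1 above the floor ran from -0.72 to 0.29.

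For blood, Alas2, the haem synthesis enzyme of red cell precursors, had 308 in DEF/FOS livers and 586 in DEF/CT livers, 1.88-fold lower, while Hbb-b2 had 51.2 in DEF/FOS livers and 53.2 in DEF/CT livers. The other 4 red cell markers with a probe set were below the floor in both. Red cell markers summed to 359 in DEF/FOS livers and 639.6 in DEF/CT livers over 2 genes. Platelet markers summed to 175.7 in DEF/FOS livers and 177 in DEF/CT livers over 4 genes, with Pf4 and Itga2b within 1.5-fold, Ppbp 1.38-fold higher and Treml1 at least 1.76-fold lower. Among markers of neighbouring organs, Nkx2-3, a homeobox gene of spleen and gut mesenchyme, had 14.1 in DEF/FOS livers and 44.7 in DEF/CT livers, at least 2.28-fold lower, and the elastase gene Cela1 was 2.03-fold lower. Nkx2-5, another homeobox gene among these markers, went the other way, with 26.5 in DEF/FOS livers and 20.6 in DEF/CT livers, a difference of 0.375. The spleen gene Tlx1 was below the floor in both pools. The pancreatic genes Cpa1 and Prss2 differed by -0.48 and 0.38, but the 4 probe sets of Prss2 above the floor ran from -0.35 to 0.38. Fabp2, a fatty acid binding protein of the gut, differed by 0.36. That list summed to 3335 in DEF/FOS livers and 3372 in DEF/CT livers, of which Fabp2 held 2265 in DEF/FOS livers and 1779 in DEF/CT livers. Without Fabp2, left out after its values were seen, the sums were 1069.6 in DEF/FOS livers and 1593 in DEF/CT livers. Most of the gap between these sums is from Cela1 alone, with 428 in DEF/FOS livers and 878 in DEF/CT livers. Endothelial markers lay within 1.5-fold in 10 of 10 genes, with Pecam1 at 0.25, Kdr at -0.22, Tek at -0.20 and Cdh5 at 0.19. Of 4 dendritic cell markers above the floor, Cd209a was at least 1.38-fold lower, Siglech at least 1.22-fold higher, and Bst2 and Zbtb46 differed by 0.19 and -0.02.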

How the data were processed

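Liver RNA of 2 groups, pooled within each group, was put on 1 array per group, per the labels' protocols. The deposited values are MAS5 signal intensities for 45101 probe sets, 64 of them array controls, and GCOS and MAS5 are named without a version in the submitters' processing notes. No column was left unmapped. The number of arrays limits the precision, and no test could be run.

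Probe sets took their gene from the platform's annotation of 2016, which can be old, and only the 34945 probe sets of 1 symbol were named. Entrez identifiers matched a RefSeq table of GRCm38.p6 for 34741 of them, and 0 symbols changed. Signals were log2 transformed with no offset, subtracted and centred with Python 3.11.15, numpy 2.4.6 and pandas 2.3.3. The procedure was tested on simulated data. Figures used matplotlib 3.10.9.

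The members and lists were chosen with earlier results of these data known. All members, up to 4 genes per list with the largest absolute difference above the floor, and the immunoglobulin constant region genes are named, and further genes are named to say what lay below the floor. Some genes above the floor are named outside that rule, among them H2-Aa, Fabp2 and Alb. Alb had the smallest absolute difference of the 9 hepatocyte markers, and the others are given by their range alone. Quantile normalization, no centring, other floors, offsets of 16 and 32, and other choices of probe set were tried.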

Additional observations from a re-analysis of the deposited data

How the results depend on the processing

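No paired analysis was possible because each group has 1 array, and for the same reason no replicate could be left out. The median difference of the members stayed negative in each of the 9 alternatives, and with any 1 of the 7 members left out it ran from -0.69 to -0.45. With a floor at the 75th percentile of signal only Ighm was left, so that the median was -1.72, with 1 member at least 1.5-fold lower and 1 at least 2-fold lower. The number at least 2-fold lower was 1 in place of 2 with any signal under 19.4 raised to that value, with an offset of 16, with an offset of 32, with the median over probe sets of a gene, and without probe sets ending _x_at, _s_at or _a_at. The number at least 1.5-fold lower, 3, was 2 with an offset of 32, with the median over probe sets and without those endings, and 4 with no floor. The difference of Ighm depends on which probe set stands for it: -1.72 by the probe set of highest mean signal and -0.04 by the median over its probe sets above the floor. Without those endings Ighm has no probe set above the floor. Ms4a1 ran from -1.30 to -0.54 and Jchain from -0.94 to -0.65 over the settings that gave a value. Over all genes, 873 were at least 1.5-fold lower and 754 at least 1.5-fold higher, against 3783 and 2618 with no floor, 187 and 271 with the floor at the 75th percentile, 458 and 435 with an offset of 16, and 258 and 278 with an offset of 32. Low signal limits the members: 6 of the 7 above the floor have a mean signal under 84.3.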

Other observations

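Of the 41 immunoglobulin probe sets that do not list Ighm, 27 were below the floor of 19.4 in both pools. A probe set named Igk, 1425738_at, chosen after its values were seen, had 1.94 in DEF/FOS livers and 46.4 in DEF/CT livers, at least 2.36-fold lower in DEF/FOS livers. Also named Igk, 1426178_at was at least 1.17-fold lower. In the other direction, Igkv9-120 had 19.5 in DEF/FOS livers and 7.69 in DEF/CT livers by 1460423_x_at, at least 1.02-fold higher. Of the 21 probe sets named for 1 kappa symbol, 16 had both signals below the floor, so no direction is given for them.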
